A study of Mus musculus with 9 samples.

Results

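The genes described here were low in marrow cells carrying the CBFB-MYH11 fusion and stayed low when Chd7 was targeted as well. They were chosen by the group means of a normalised expression table: a mean of at least 100 in wild-type cells, (WT mean + 1) over (KI mean + 1) of at least 3, and (KI_Chd7del mean + 1) over (KI mean + 1) of at most 1.4. Of 43629 genes in the table, 11073 reached the wild-type minimum, 521 of those also reached the 3-fold limit, and 108 of the 521 met all 3 conditions. The other 413 lowered genes lay above the 1.4 limit. Because the rule used the means of every group, the differences between groups given below describe how the members were picked and are not evidence for them.

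RNA was sequenced from c-KIT+ bone marrow cells of C57BL/6 mice, 3 libraries a group. The KI_Chd7del group was Chd7f/f, Mx1-Cre, Cbfb+/56M, the KI group was Mx1-Cre, Cbfb+/56M, and the WT group was labelled wild type with no Cre named. All mice had received pIpC, cells were taken by magnetic selection for CD117, and the labels give neither ages nor a statement that each library came from its own mouse. Cbfb+/56M is a conditional knock-in of the fusion, and Mx1-Cre is switched on by pIpC in blood cells and in other interferon-responsive cells.

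CBFB is the partner that stabilises RUNX proteins on DNA, and the fusion with the tail of smooth muscle myosin heavy chain (MYH11) interferes with RUNX function and blocks differentiation in inv(16) acute myeloid leukaemia. CHD7 is an ATP-dependent chromatin remodeller. In marrow, RUNX factors act in granulocytic, megakaryocytic and lymphoid differentiation, and developing neutrophils switch on oxidase, adhesion, granule and actin genes as they mature.

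Column totals were 37538447 to 39002839 in the 6 KI_Chd7del and KI libraries and 43222301 to 46159426 in the WT libraries. These are sums of values that had already been normalised and are not read depths. Myh11, whose tail is part of the fusion, averaged 176 ± 11.5 in KI_Chd7del, 196 ± 21.6 in KI and 7.33 ± 2.08 in WT (SD, n = 3 each). Chd7 averaged 1859 ± 63.6 in KI_Chd7del, 2307 ± 543 in KI and 3733 ± 256 in WT (SD, n = 3 each). A value for the whole gene does not show whether an inner exon was removed, so it does not check the deletion. Kit, the receptor used to select the cells, averaged 7457 ± 1212, 3538 ± 321 and 7504 ± 253 in the same order (SD, n = 3 each). In whole selected marrow, fewer cells of a type and less RNA per cell cannot be told apart, and this holds for every value below.

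The set had 2 large components. Immunoglobulin genes made up 35 members: 15 heavy chain V segments, 16 kappa V segments, 1 lambda V segment, and Ighd, Ighg2c and Iglc2, which encode constant regions. The other 73 comprised 13 genes of phagocyte function, 18 receptors and signalling genes, 17 genes of metabolism, proteolysis and autophagy, 3 plasma membrane transporters, 2 lymphoid cell genes and 20 others. These role groups were drawn up after the members were known.

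The word silenced would overstate most of the falls. The median ratio of WT over KI was 3.89 over all 108 members, with a range of 3.01 to 62.0; a ratio above 1 means lower in KI. The median mean value was 84.5 in KI_Chd7del, 140 in KI and 583 in WT. Means were below 50 in both mutant groups for 24 members. The median ratio of KI_Chd7del over KI was 1.07 in the members, against 2.19 in the other lowered genes, whose median ratio of WT over KI was 5.14.

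**Figure D1:**
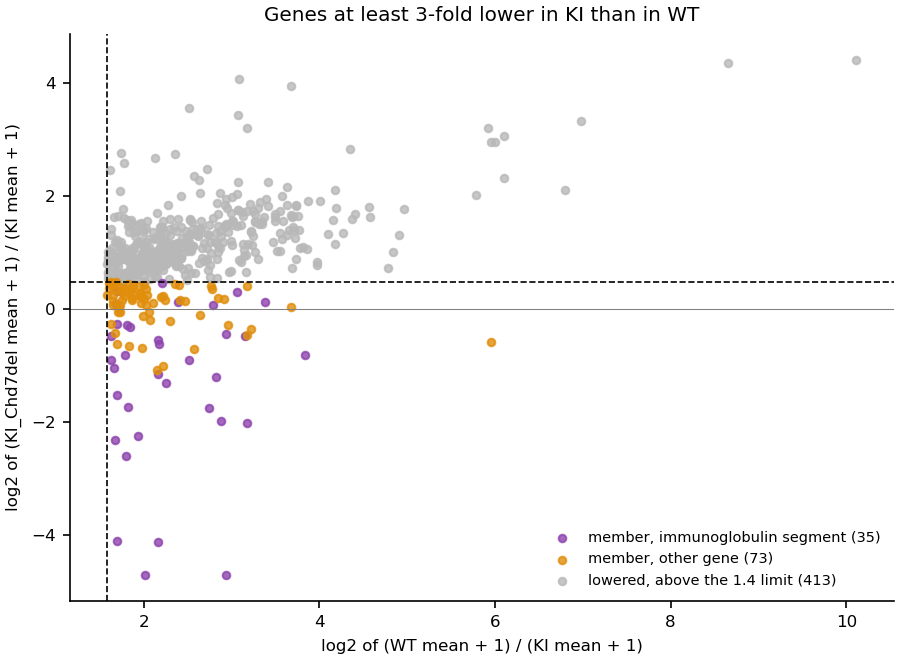
Each point is 1 of the 521 genes at least 3-fold lower in KI than in WT, with the log2 ratio of KI_Chd7del over KI means on the vertical axis and that of WT over KI means on the horizontal axis. Dashed lines mark the limits of the rule, and most immunoglobulin members lie below 0 on the vertical axis while most other members lie between 0 and the limit.

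The plot of the 521 lowered genes shows that the members form no separate cloud: they continue downwards from the genes above the limit. Apobr (ratio of KI_Chd7del over KI 1.397) and Gpr157 (1.385) lay just inside the 1.4 limit, and Ptges and Pygl (1.412) just outside it. Map1lc3a and Vasp (ratio of WT over KI 3.043 each) lay just inside the 3-fold limit, with Rapgef3 (2.984) and Arhgdib (2.976) just outside. At the wild-type minimum, Ighv1-63 (mean 102) and Ighv5-9 (105) were in, and Tac2 and Igkv8-18 (98.7 each) were out.

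Among the 108 members, KI_Chd7del was below KI by the means in 47, of which 28 were immunoglobulin genes; over all 15997 genes tested it was so in 8111, so the share in the members lay near that of all genes. The median ratio of KI_Chd7del over KI was 0.539 for the 35 immunoglobulin members and 1.16 for the other 73. Over all 121 immunoglobulin genes with a WT mean of at least 100, members included, that median was 0.478. The low ratio was thus not particular to the members. Every KI_Chd7del library lay below every KI library in 15 members, 12 of them immunoglobulin genes, where 28.2% of all 15997 genes tested did so. Every KI_Chd7del library lay above every KI library in 12 members, none of them an immunoglobulin gene, where 23.8% of all genes tested did so. In these 12 the KI_Chd7del mean exceeded the KI mean by less than the rule's limit although the libraries did not overlap.

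All 6 mutant libraries lay below every WT library in 91 members, against 21.5% of all genes tested. That held for 72 of the 73 members outside the immunoglobulin genes and for 19 of the 35 immunoglobulin members. By limma on log2(value + 1) with Benjamini-Hochberg adjustment over all genes, 107 members passed the filter on low values, and only Hunk did not. Of the 107, 90 were called lower in KI than in WT, a call made for 27.2% of all genes. In KI_Chd7del against KI, 10 were called lower, a call made for 22.9% of all genes, and 9 were called higher, a call made for 17.5%. In KI_Chd7del against WT, 105 were called lower, a call made for 24.3% of all genes. Ighv1-63 and Igkv1-135 were the members not called there. The counts of KI_Chd7del against KI moved with the libraries used. Members called higher numbered 22 without KI library 2, 2 without KI library 3, 4 without KI library 1 and 5 or 6 without a KI_Chd7del library, and 16 with upper-quartile factors. Members called lower numbered 3 without KI library 1 and 5 without KI_Chd7del library 1. Since the rule fixed or bounded each contrast, nothing is read from these counts.

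Promoters of 4 of the most abundant members outside the immunoglobulin genes are shown, from 250 bases before to 50 bases after the RefSeq transcription start (build GRCm38.p6), since the fusion acts on a DNA-binding complex. All 4 run 5′ to 3′ along the gene. Capitals mark matches to 4 short motifs on either strand. The RUNX motif searched was TGTGGT, and the motif searched for GATA factors was AGATAA. For C/EBP factors the letters were TTGCNNAA, with N any base. For ETS factors they were GGAAGT. Cybb lies at chrX:9469275-9469574, minus strand; Vasp at chr7:19271805-19272104, minus strand; Zmpste24 at chr4:121098161-121098460, minus strand; and Olfm4 at chr14:80000052-80000351, plus strand.
Cybb: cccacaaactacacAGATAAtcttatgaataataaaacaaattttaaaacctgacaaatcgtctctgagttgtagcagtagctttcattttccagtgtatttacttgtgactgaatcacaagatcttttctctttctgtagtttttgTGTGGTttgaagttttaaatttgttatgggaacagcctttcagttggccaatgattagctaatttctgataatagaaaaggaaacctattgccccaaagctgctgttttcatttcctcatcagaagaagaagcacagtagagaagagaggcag
Vasp: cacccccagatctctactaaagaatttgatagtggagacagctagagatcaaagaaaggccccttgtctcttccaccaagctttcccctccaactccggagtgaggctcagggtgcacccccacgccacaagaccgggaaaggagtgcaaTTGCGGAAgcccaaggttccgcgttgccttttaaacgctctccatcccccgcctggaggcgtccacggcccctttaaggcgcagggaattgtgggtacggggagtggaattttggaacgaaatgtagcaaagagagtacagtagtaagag
Zmpste24: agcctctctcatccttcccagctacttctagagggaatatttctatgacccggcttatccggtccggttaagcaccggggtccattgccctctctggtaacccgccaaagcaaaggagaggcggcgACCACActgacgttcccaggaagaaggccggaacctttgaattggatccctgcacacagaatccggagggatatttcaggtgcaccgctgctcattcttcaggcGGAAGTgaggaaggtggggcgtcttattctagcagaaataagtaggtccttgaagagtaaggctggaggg
Olfm4: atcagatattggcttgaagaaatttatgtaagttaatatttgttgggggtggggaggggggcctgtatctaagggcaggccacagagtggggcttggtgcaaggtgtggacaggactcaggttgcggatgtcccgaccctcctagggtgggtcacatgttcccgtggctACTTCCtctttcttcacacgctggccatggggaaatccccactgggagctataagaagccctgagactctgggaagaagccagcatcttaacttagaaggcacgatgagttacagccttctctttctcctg

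Cybb held a GATA match 236 bases and a RUNX match 103 bases before the start. Vasp held a C/EBP match 100 bases before it, Zmpste24 a RUNX match on the opposite strand 124 bases and an ETS match 20 bases before it, and Olfm4 an ETS match on the opposite strand 81 bases before it. The windows of Rab3d and Bmpr1a held none of the 4. A match is a description of letters and not a binding site, and overlaps between motifs were not searched for.

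Of the 107 members with a symbol, 49 had a promoter in the RefSeq table, with 70 windows because some genes have several starts. The RUNX letters were in 24.3% of the member windows, 21.2% of the windows of the other lowered genes, 13.5% of those of all genes tested and 16.8% of all windows in the table. With genes of 1 window only, the RUNX shares were 18.4% of 38 members, 20.8% of the other lowered genes, 13.2% of genes tested and 17.1% of all. The order of members against the other lowered genes thus turned round with the choice of windows. The GATA letters were in 15.7% of member windows (11 windows), 8.48% of those of the other lowered genes, 7% of genes tested and 11.2% of all. The C/EBP letters were in 8.57%, 13.2%, 8.88% and 10.8% in the same order, and the ETS letters in 21.4%, 28.7%, 28.2% and 23.8%. With genes of 1 window only, the GATA shares were 18.4% (7 windows), 9.32%, 6.62% and 11.5%. Those of C/EBP were then 10.5%, 14.8%, 8.47% and 10.8%, and those of ETS 18.4%, 36.4%, 29.8% and 24.3%. V segments had no entry in the promoter table. A list of reported RUNX1 and CBFB targets held no member. Of its 36 genes tested, 14 were called lower and 16 higher in KI than in WT. Over all genes tested these calls were made for 27.2% and 31.8%.

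The phagocyte members were the most abundant, with a median WT mean of 13336. Cybb (ENSMUSG00000015340, chromosome X) encodes gp91phox, the catalytic subunit of the phagocyte NADPH oxidase. It had 34177, 30945 and 33175 in KI_Chd7del, 27408, 36263 and 19914 in KI, and 83640, 100763 and 102710 in WT. The mutant groups overlapped, and each of their libraries was far below the lowest WT library. Itgb2 encodes the shared beta-2 chain of the leukocyte integrins. It had 19859, 17482 and 19466 in KI_Chd7del, 14647, 18292 and 11980 in KI, and 40009, 52673 and 51065 in WT. KI library 2 fell within the KI_Chd7del range, and none reached WT.

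Serpinb1a, an inhibitor of neutrophil serine proteases, had 8988, 8081 and 9956 in KI_Chd7del, 5985, 8613 and 5177 in KI, and 31610, 34653 and 34780 in WT. Its KI_Chd7del over KI ratio was 1.37. Olfm4, a secreted glycoprotein of a subset of neutrophils, had 3123, 1825 and 1456 in KI_Chd7del, 1719, 3274 and 587 in KI, and 11973, 14982 and 13054 in WT. Olfm4 had the largest ratio of WT over KI among the phagocyte members, 7.17, and its KI range enclosed its KI_Chd7del range.

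Gsn and Vasp regulate actin filaments, Gsn by severing and capping and Vasp by promoting elongation. Gsn had 7419, 6641 and 7238 in KI_Chd7del, 6315, 6373 and 5010 in KI, and 20654, 23789 and 24139 in WT. Vasp had 12380, 10986 and 11541 in KI_Chd7del, 8837, 10493 and 7574 in KI, and 22437, 31291 and 28160 in WT. For both genes every KI_Chd7del library was above every KI library, by a small step compared with the gap to WT.

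Arrb2, an arrestin that desensitises chemoattractant and other G protein-coupled receptors, averaged 6942 ± 749 in KI_Chd7del, 5647 ± 913 in KI and 19099 ± 2189 in WT (SD, n = 3 each). Rab3d, a small GTPase of regulated exocytosis, had 5796, 5313 and 5328 in KI_Chd7del, 3986, 4938 and 3259 in KI, and 11591, 12974 and 13297 in WT. Its mutant groups did not overlap, and its ratio of KI_Chd7del over KI was 1.35. Apobr, Rhou, Tspan32, Cela1 and Chil4 complete the phagocyte members, with ratios of WT over KI of 3.22 to 6.22. Cela1 is not the neutrophil elastase gene, so its place in this group is uncertain. That gene, Elane, lay above the 1.4 limit (ratio 1.76). Over the 13 phagocyte members the median ratio of KI_Chd7del over KI was 1.25, and 12 of 13 were at least 1. So were 54 of all 73 members outside the immunoglobulin genes and 7886 of 15997 genes tested. Among the members of metabolism, proteolysis and autophagy 16 of 17 were, so the direction was not particular to the phagocyte members.

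**Figure D2:**
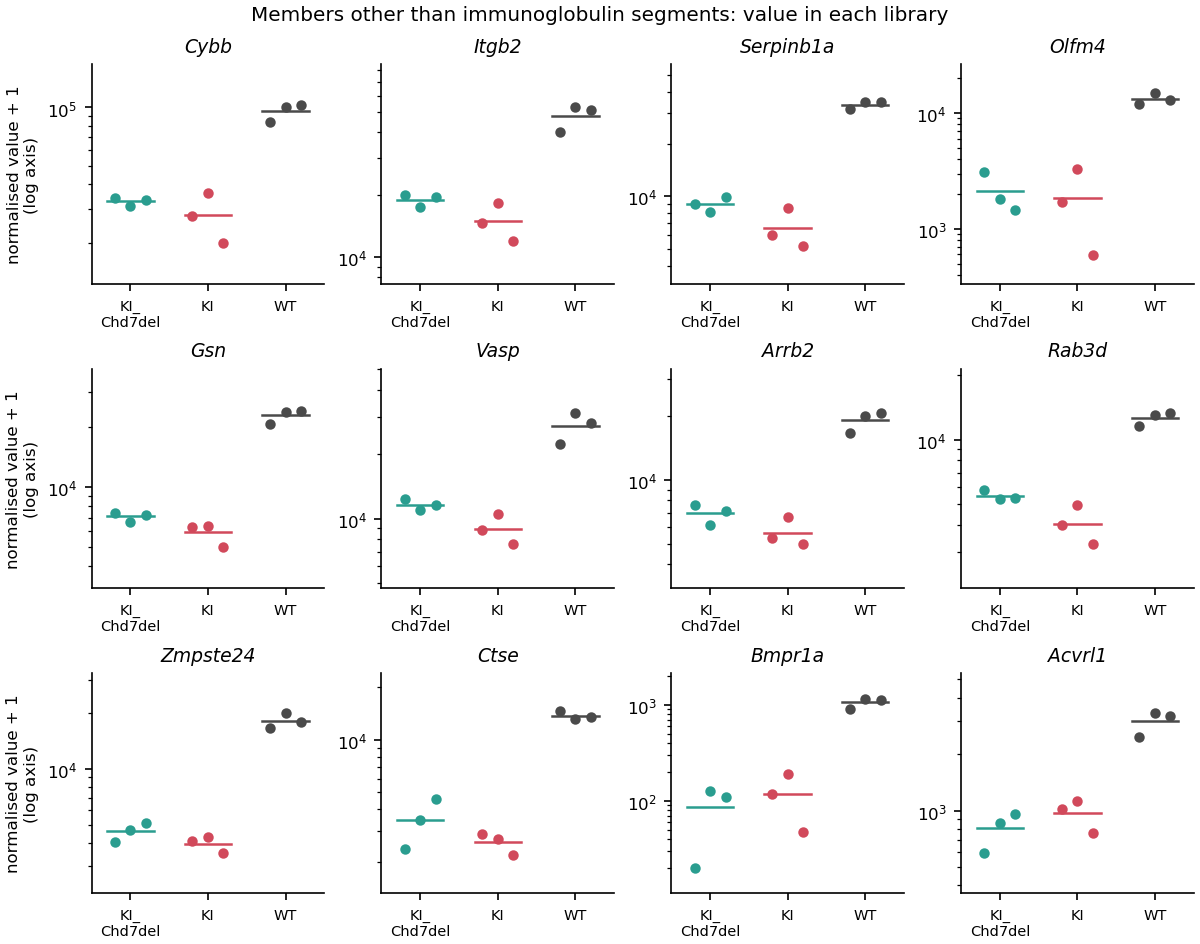
Normalised value + 1 (log axis, scaled to each gene) in each library for 12 members outside the immunoglobulin genes, with KI_Chd7del at the left, KI in the middle and WT at the right; points are libraries and bars are group means. In each panel all 6 mutant libraries lie below the 3 WT libraries. In most panels the KI libraries are more spread than the WT libraries, but not in that of Vasp.

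The panels of 12 members also show an order among the KI libraries. KI library 2 was the highest and KI library 3 the lowest KI library in 10 of the 13 phagocyte members (76.9%), in 31 of the 73 members outside the immunoglobulin genes (42.5%), in 72.9% of the other lowered genes and in 18.8% of all genes tested. The summed values of 20 late neutrophil genes, such as S100a8, Ltf and Camp, had the same order: 5.80%, 4.43% and 4.50% of the column total in KI_Chd7del, 1.91%, 3.07% and 1.17% in KI, and 12.0%, 14.2% and 14.1% in WT. All 20 were called lower in KI than in WT, 17 were called higher in KI_Chd7del than in KI, and none was a member. These counts were also 20 and 17 with equal column totals and with upper-quartile factors. Of 13 early neutrophil granule genes tested, 11 were called lower in KI than in WT, or 9 with equal column totals. In KI_Chd7del against KI 11 of the 13 were called higher, and Serpinb1a was the only member. The part of the neutrophil content in the values of the members was not tested.

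Cybb was the only member among the NADPH oxidase genes. Of 8 NADPH oxidase genes tested, 6 were called lower in KI than in WT and 1 higher (median log2 -1.39, against 0.02 over all genes tested), and 3 were called higher and 1 lower in KI_Chd7del than in KI. With equal column totals 2 rather than 1 were called higher in KI than in WT. Cyba, the membrane partner of Cybb, averaged 6937 in KI_Chd7del, 6599 in KI and 19511 in WT and missed the 3-fold limit. Ncf1, a cytosolic oxidase subunit, had 21450, 18182 and 19516 in KI_Chd7del, 11076, 16046 and 8655 in KI, and 41723, 53303 and 53020 in WT. It was higher in KI_Chd7del than in KI by 0.77 ± 0.20 on the log2 scale (SE, adjusted p = 0.0144 by limma). Ncf4 was likewise higher, by 0.76 (adjusted p = 0.0224 by limma), and Rac2 by 0.33 (adjusted p = 0.0236 by limma). Ncf1 and Ncf4 met the WT minimum and the 3-fold limit and lay above the 1.4 limit (ratios 1.65 and 1.67). Their rise over KI was thus fixed by the rule and is no evidence of another response. The Rac2 step was no larger than that of many phagocyte members. Their median log2 difference was 0.36, and 3 of the 13 were called higher. The difference in response between the membrane and the cytosolic subunits was not tested.

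Of 12 genes for beta-2 integrins and their activation, 4 were called lower and 2 higher in KI than in WT, and 3 were called higher and 4 lower in KI_Chd7del than in KI. With equal column totals the KI against WT counts turned to 3 lower and 5 higher, and with upper-quartile factors those of KI_Chd7del against KI turned to 4 higher and 2 lower. Itgam, the alpha chain that pairs with Itgb2 in Mac-1, had 34588, 32151 and 31318 in KI_Chd7del, 19721, 27216 and 14679 in KI, and 52390, 71581 and 73703 in WT. It was higher in KI_Chd7del than in KI by 0.71 ± 0.21 on the log2 scale (SE, adjusted p = 0.0235 by limma), where the change of Itgb2 itself was 0.36 ± 0.15 and bounded by the rule.

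Of 20 actin filament regulators tested, 15 were called lower in KI than in WT (14 with equal column totals) and 4 higher. The list holds 5 members: Vasp, Gsn, Rhou, Baiap2 and Mical2. The 10 genes called lower that are no members lay closer to WT, for example Pfn1, which binds actin monomers, at 29186 in KI_Chd7del, 25880 in KI and 47914 in WT. Baiap2, an adaptor of membrane protrusions, had 86, 79 and 125 in KI_Chd7del, 155, 153 and 137 in KI, and 452, 477 and 526 in WT. Mical2, which oxidises actin, had 57, 63 and 64 in KI_Chd7del, 80, 78 and 89 in KI, and 255, 285 and 253 in WT. In both, unlike Vasp and Gsn, every KI_Chd7del library was below every KI library.

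Receptors and signalling genes were less abundant, with a median WT mean of 470, and their median ratio of KI_Chd7del over KI was 0.969. Bmpr1a, a type I receptor for bone morphogenetic proteins, had 19, 126 and 108 in KI_Chd7del, 117, 187 and 46 in KI, and 913, 1161 and 1111 in WT. Acvrl1, the type I receptor ALK1, had 594, 857 and 962 in KI_Chd7del, 1019, 1122 and 763 in KI, and 2463, 3302 and 3201 in WT. Both were low in all 6 mutant libraries, and their mutant groups overlapped.

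Of 21 genes tested for BMP, activin and TGF-beta receptors and their Smads, 6 were called lower and 10 higher in KI than in WT (median log2 0.26), or 4 and 12 with equal column totals. Bmpr2, the type II partner of Bmpr1a and Acvrl1, had 1984, 1877 and 1616 in KI_Chd7del, 3364, 2916 and 3478 in KI, and 1020, 978 and 1049 in WT. It was higher in KI than in WT by 1.67 ± 0.09 on the log2 scale (SE, adjusted p = 1.01e-06 by limma). Acvr1, another type I receptor, averaged 278 in KI_Chd7del, 395 in KI and 60.3 in WT, and Smad1, which those receptors phosphorylate, averaged 1034, 1483 and 432 in the same order. The adjusted p of KI against WT by limma was 5.44e-07 for Acvr1 and 1.06e-06 for Smad1. Bmpr1a and Acvrl1 were thus lower, and Bmpr2, Acvr1 and Smad1 higher, in KI than in WT. Bmpr1b had a mean of 0 in KI_Chd7del and WT and 0.333 in KI.

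Sphk1, a kinase that makes sphingosine 1-phosphate, had 542, 671 and 901 in KI_Chd7del, 831, 600 and 534 in KI, and 2789, 2778 and 2160 in WT. Ryk, a receptor for Wnt ligands, averaged 182 ± 31.9 in KI_Chd7del, 188 ± 44.4 in KI and 627 ± 108 in WT (SD, n = 3 each). Gja1, the gap junction protein connexin 43, had 60, 131 and 143 in KI_Chd7del, 131, 81 and 98 in KI, and 443, 422 and 478 in WT. Arhgef26, a guanine nucleotide exchange factor, had 6, 11 and 28 in KI_Chd7del, 16, 14 and 25 in KI, and 164, 132 and 152 in WT. In these 4 genes the mutant groups overlapped, and every WT library was above them.

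Hunk, a protein kinase, had the largest ratio of WT over KI, 62.0, and that ratio came from WT library 3 alone. It had 0, 2 and 1 in KI_Chd7del, 4, 0 and 2 in KI, and 2, 6 and 547 in WT. Without WT library 3 it was no member.

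Among genes of metabolism, proteolysis and autophagy, Zmpste24 and Ctse were the most abundant. Zmpste24, the protease that processes prelamin A, had 4040, 4701 and 5110 in KI_Chd7del, 4087, 4285 and 3513 in KI, and 16610, 19989 and 17930 in WT. Ctse, the aspartic protease cathepsin E, had 2350, 3483 and 4556 in KI_Chd7del, 2882, 2704 and 2183 in KI, and 14618, 13129 and 13514 in WT. In both, the mutant groups overlapped and stood clear of every WT library.

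Ctse and Ctsk were the only members among 14 cathepsin genes, of which 8 were called higher and 2 lower in KI than in WT, or 8 and 1 with equal column totals. Of all genes tested, 31.8% were called higher and 27.2% lower in KI than in WT, and the other list counts are to be read against these shares. Ctsc, which activates granule serine proteases, averaged 5638 in KI_Chd7del, 34228 in KI and 2725 in WT (adjusted p = 7.72e-08 for KI against WT by limma). Ctsk, known for its role in bone resorption by osteoclasts, had 16, 172 and 66 in KI_Chd7del, 157, 162 and 191 in KI, and 1359, 304 and 721 in WT. The WT libraries of Ctsk were far apart.

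Sqor, which oxidises hydrogen sulphide in mitochondria, and Pfkfb4, which sets the level of fructose 2,6-bisphosphate, had ratios of WT over KI of 3.66 and 3.53. The autophagy members were Wipi1 and Map1lc3a. Wipi1, which acts at the forming autophagosome, had 1395, 1271 and 1275 in KI_Chd7del, 944, 1098 and 850 in KI, and 3218, 3448 and 3542 in WT. The other, Map1lc3a, encodes LC3A and had 271, 199 and 206 in KI_Chd7del, 152, 172 and 166 in KI, and 488, 506 and 503 in WT. In both, the KI_Chd7del libraries were above every KI library.

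Mocos, the sulphurase of the molybdenum cofactor, had 876, 839 and 892 in KI_Chd7del, 699, 877 and 553 in KI, and 2396, 3027 and 2841 in WT. Slc25a21, a mitochondrial carrier of oxodicarboxylates, had 251, 275 and 377 in KI_Chd7del, 324, 279 and 258 in KI, and 1307, 1146 and 1056 in WT. Chac1, which breaks down glutathione, had 73, 50 and 58 in KI_Chd7del, 48, 32 and 81 in KI, and 200, 193 and 159 in WT. In all 3 genes the mutant groups overlapped and the WT libraries were the 3 highest.

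The 3 plasma membrane transporters were Slc6a13, Slc26a1 and Slc26a8. Slc26a1, a sulphate transporter, had 64, 46 and 107 in KI_Chd7del, 61, 58 and 49 in KI, and 402, 403 and 364 in WT. Slc6a13, a GABA transporter, had 157, 204 and 222 in KI_Chd7del, 218, 164 and 175 in KI, and 541, 616 and 698 in WT. Neither gene separated the mutant groups.

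Further signalling members were Vangl1, a planar cell polarity protein, and Ptprr, a receptor-type tyrosine phosphatase. Vangl1 had 32, 37 and 61 in KI_Chd7del, 40, 36 and 20 in KI, and 126, 146 and 123 in WT. Ptprr had 10, 18 and 29 in KI_Chd7del, 14, 38 and 14 in KI, and 110, 97 and 130 in WT. Ptprr was kept whichever library was left out, while Vangl1 lay close enough to the 1.4 limit (ratio 1.34) to be lost in 4 of 9 such runs.

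Lineage markers were few among the members. Trim10, an erythroid gene, had 128, 107 and 200 in KI_Chd7del, 258, 173 and 258 in KI, and 847, 802 and 816 in WT. Of 36 erythroid genes tested, 14 were called lower and 14 higher in KI than in WT, 11 and 19 with equal column totals, and Trim10 and Sphk1 were the members. Cd3d, a chain of the T cell receptor complex, had 47, 88 and 118 in KI_Chd7del, 61, 143 and 70 in KI, and 626, 256 and 215 in WT. It was the only member among 23 tested genes of T, NK and innate lymphoid cells, of which 5 were called lower and 4 higher in KI than in WT, or 5 and 5 with equal column totals. Klrb1b, an inhibitory receptor of NK cells, had 8, 32 and 52 in KI_Chd7del, 31, 14 and 32 in KI, and 84, 108 and 134 in WT. No member was on the lists for B cells, megakaryocytes and platelets, eosinophils, basophils and mast cells, monocytes and macrophages, dendritic cells or stem cells. Several of these lists lay higher in KI than in WT, opposite to the phagocyte members: 20 of 23 monocyte and macrophage genes, 15 of 18 dendritic cell genes, and 13 of 18 basophil and mast cell genes were called higher in KI, where 31.8% of all genes were. With 2, 1 and 4 called lower, the direction was the same with equal column totals and upper-quartile factors. In KI_Chd7del against KI, 19, 7 and 11 of them were called lower and 3, 3 and 5 higher. Their part in the values of the members was not tested.

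Of the 20 members in no role group, I830127L07Rik, annotated as a transcribed unprocessed pseudogene with 798 exon bases, was the most abundant. It had 5779, 5215 and 6151 in KI_Chd7del, 5062, 5906 and 4313 in KI, and 23670, 29412 and 28319 in WT. Per kb of exon its WT mean was 34002, the highest of all members, followed by Igkv8-30 at 19487, Igkv14-126 at 19005 and Cybb at 16478. Tmem45a2 had 31, 30 and 72 in KI_Chd7del, 41, 71 and 17 in KI, and 444, 681 and 559 in WT. Cystm1, a short protein with a cysteine-rich membrane segment, had 7, 10 and 16 in KI_Chd7del, 18, 11 and 14 in KI, and 111, 172 and 143 in WT. Each of these 3 stood clear of both mutant groups in every WT library. Dmc1, a meiotic recombinase, had 32, 30 and 40 in KI_Chd7del, 26, 43 and 21 in KI, and 233, 223 and 241 in WT. Tnnt1, troponin T of slow skeletal muscle, had 239, 210 and 179 in KI_Chd7del, 188, 169 and 193 in KI, and 585, 743 and 681 in WT. Both are germline or muscle genes by name, and both had their 3 highest values in WT marrow. ENSMUSG00000089672, with no symbol in the annotation, had 534, 838 and 746 in KI_Chd7del, 400, 1203 and 407 in KI, and 1262, 2284 and 2754 in WT.

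The immunoglobulin members had another pattern: most of the WT value often came from 1 library. In 21 of the 35, a WT library held over 50% of the 3 WT values summed, and in 13 of the 21 it was WT library 3. Of the other 73 members 3 did so, as did 11 of the other 413 lowered genes and 682 of 15997 genes tested. Of the 11073 genes with a WT mean of at least 100, which the rule asks of members, 109 did. The median coefficient of variation in WT was 62.5% for immunoglobulin members and 12% for the other members. The other 413 lowered genes included the immunoglobulin genes Igkv2-137, Igkv6-14, Ighv1-66 and Igkv7-33. Their highest WT library held 66.3%, 72.8%, 55.5% and 46.4% of the summed WT values. Immunoglobulin genes outside the lowered genes were not read on their own in this way. The rule admits a gene by its WT mean, which 1 high library can raise. The pattern is therefore not shown to be particular to the members.

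**Figure D3:**
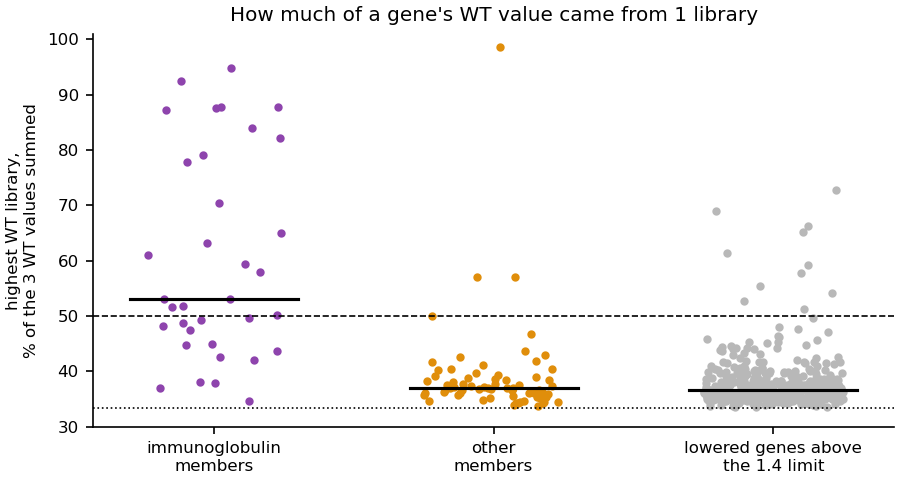
The share of the 3 summed WT values (%) held by the highest WT library, for 35 immunoglobulin members, 73 other members and 413 lowered genes above the limit; points are genes, bars are medians, the dotted line marks equal shares and the dashed line 50%. The median was 53% for immunoglobulin members, against 37% for other members and 36.7% for the other lowered genes.

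Igkv8-30, a kappa V segment on chromosome 6, had 458, 187 and 209 in KI_Chd7del, 641, 684 and 179 in KI, and 1961, 666 and 18887 in WT. Ighv3-6, a heavy chain V segment, had 460, 142 and 134 in KI_Chd7del, 574, 383 and 739 in KI, and 1122, 361 and 10549 in WT. Igkv12-46 had 19, 161 and 54 in KI_Chd7del, 3112, 695 and 245 in KI, and 475, 507 and 12168 in WT. In all 3, WT library 3 was the outlying one, and a WT library lay within the KI range or below it.

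The high library was not always the same. Igkv5-39 had 230, 509 and 256 in KI_Chd7del, 596, 420 and 362 in KI, and 5154, 6160 and 970 in WT, so that WT library 3 was its lowest. Ighv1-76 had 14, 3 and 9 in KI_Chd7del, 214, 153 and 134 in KI, and 152, 1902 and 210 in WT, with library 2 alone high. Ighv1-39 had 120, 16 and 37 in KI_Chd7del, 108, 93 and 35 in KI, and 1289, 452 and 88 in WT. Igkv12-89 was among the few even ones, with 12, 10 and 31 in KI_Chd7del, 131, 29 and 24 in KI, and 421, 434 and 398 in WT.

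The 6 lowest ratios of KI_Chd7del over KI were all in V segments. Igkv4-70 had 6, 10 and 12 in KI_Chd7del, 529, 143 and 131 in KI, and 168, 247 and 2852 in WT. Ighv1-50 had 0, 8 and 5 in KI_Chd7del, 258, 66 and 87 in KI, and 46, 116 and 3010 in WT. The ratios were 0.0385 and 0.0386. For both, every KI_Chd7del library was below every KI library, and the KI and WT ranges overlapped.

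**Figure D4:**
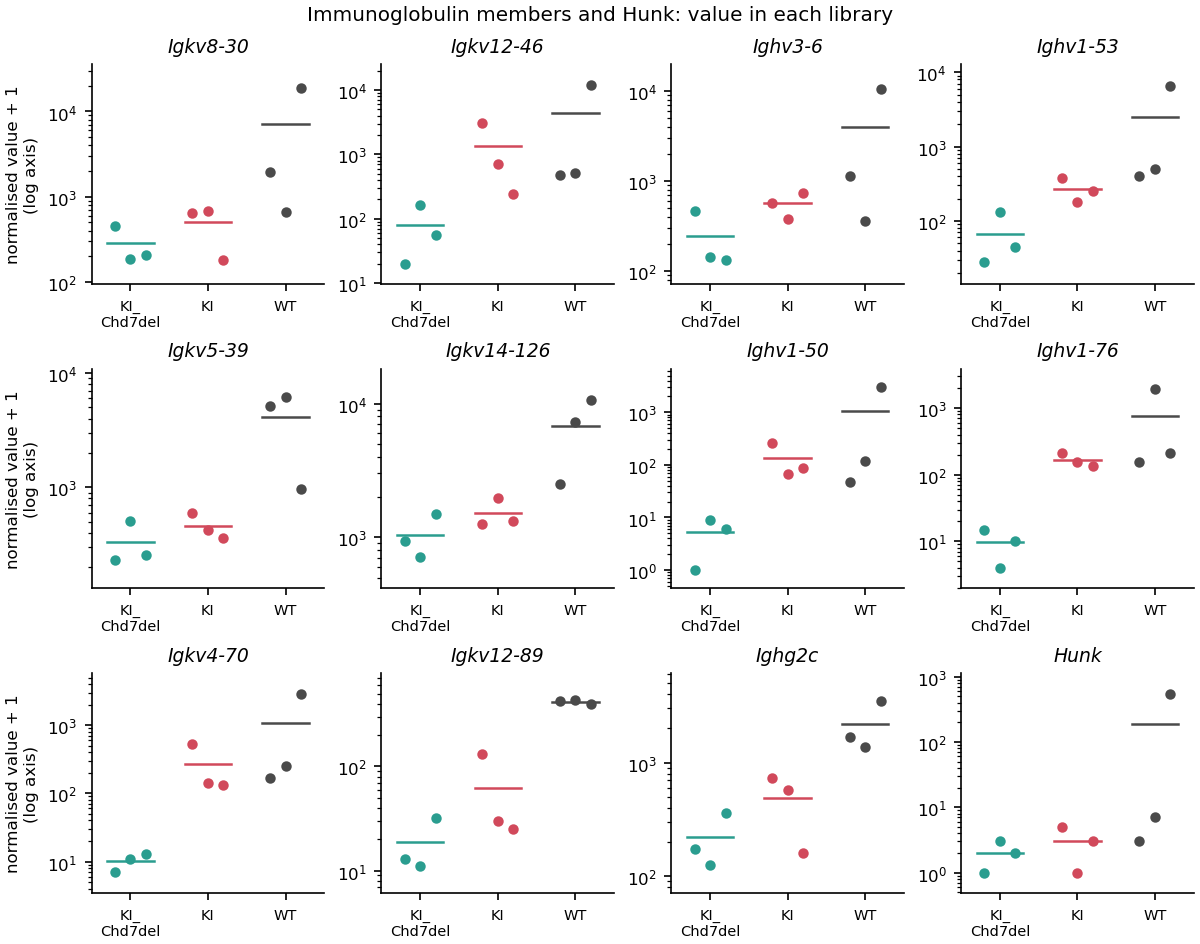
Normalised value + 1 (log axis, scaled to each gene) in each library for 11 immunoglobulin members and Hunk, with KI_Chd7del at the left, KI in the middle and WT at the right; points are libraries in replicate order and bars are group means. In most panels 1 WT library is far above the others, and in Ighv1-50, Ighv1-76 and Igkv4-70 the KI_Chd7del libraries lie below every KI library.

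The panels of immunoglobulin members can be set against the whole class. All immunoglobulin genes summed to 56514, 118370 and 101751 in KI_Chd7del, 242387, 152579 and 89199 in KI, and 227280, 246568 and 555778 in WT. The KI and WT sums overlapped only through KI library 1, and WT library 3 was the highest. Of 121 immunoglobulin genes with a WT mean of at least 100, 39 were lowered at least 3-fold and 35 were members. The constant region genes Ighm and Igkc were not members. Igkc had 10556, 25333 and 19822 in KI_Chd7del, 53774, 30186 and 17849 in KI, and 54315, 60180 and 138985 in WT. Ighg2c, a member, had 172, 124 and 361 in KI_Chd7del, 724, 571 and 157 in KI, and 1679, 1382 and 3466 in WT.

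Among 13 plasma cell genes tested, 5 were called lower and 3 higher in KI than in WT (3 and 3 with equal column totals). Jchain, which joins IgM and IgA subunits, averaged 4885 in KI_Chd7del, 8332 in KI and 24194 in WT (adjusted p = 0.0143 for KI against WT by limma). Mzb1, a chaperone of secreted antibody, averaged 731, 464 and 600 in the same order (adjusted p = 0.195 by limma), and Sdc1, a plasma cell surface marker, 635, 368 and 384 (adjusted p = 0.908 by limma). In KI_Chd7del against KI, 5 of the 13 were called lower and 1 higher. The B cell list moved the other way there: of 22 genes tested, 13 were called higher and 1 lower in KI_Chd7del than in KI (median log2 0.79), 6 were called lower and 6 higher in KI than in WT (4 and 7 with equal column totals), and 14 were called higher and 7 lower in KI_Chd7del than in WT. The plasma cell list summed to 0.131% to 0.260% of the column total in KI_Chd7del, 0.193% to 0.480% in KI and 0.345% to 0.991% in WT. The list itself holds the immunoglobulin genes Ighm, Igkc, Ighg1, Ighg2b and the member Iglc2. In WT library 3, Ighm had 258741 and Igkc 138985 of the list sum of 457573. The sum thus largely restates immunoglobulin values and is no separate measure of plasma cells. The part of plasma cells in the values of the V segments was not tested.

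V segments resemble each other, so reads may be divided between copies and a value for 1 segment is uncertain. Of the 32 member V segments, 31 had an alignable closest segment in the annotated transcripts, at a median identity of 94.9% (84.2% to 98.3%), and 15 had one at least 95% identical. Ighv1-41 is annotated as a V pseudogene. Starts within 100 kb of each other placed 22 members in 10 neighbourhoods, all of immunoglobulin genes. The largest held Igkv14-126, Igkv9-124, Igkv17-121 and Igkv9-120 at chr6:67896172-68050456 (GRCm38). Its leading segment, Igkv14-126, had 943, 711 and 1488 in KI_Chd7del, 1266, 1975 and 1322 in KI, and 2499, 7318 and 10594 in WT. Ighv1-50 and Ighv1-53 were neighbours on chromosome 12, and Ighv1-53 had 27, 129 and 43 in KI_Chd7del, 381, 177 and 253 in KI, and 406, 495 and 6482 in WT, with WT library 3 high as in Ighv1-50. Iglv2 and Iglc2 formed a pair on chromosome 16, and Ighv11-2 and Ighv9-1 another on chromosome 12. No neighbourhood held a member outside the immunoglobulin genes.

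Membership depended on which libraries were used. Run without 1 library at a time, the rule gave 87 to 131 genes, and 38 of the 108 were members in all 9 runs: 6 immunoglobulin genes and 32 others. Leaving out KI library 2 lost the most, 38 members, of which 29 were outside the immunoglobulin genes. Leaving out WT library 3 lost 24, of which 15 were immunoglobulin genes, and leaving out KI library 3 lost 25. Cybb, Gsn, Arrb2, Tspan32, Zmpste24, Bmpr1a, Sphk1, Ryk, Gja1, Baiap2 and Mical2 were among those kept throughout. Itgb2, Serpinb1a, Olfm4, Vasp, Rab3d, Rhou, Wipi1 and Map1lc3a were lost without KI library 2.

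**Figure D5:**
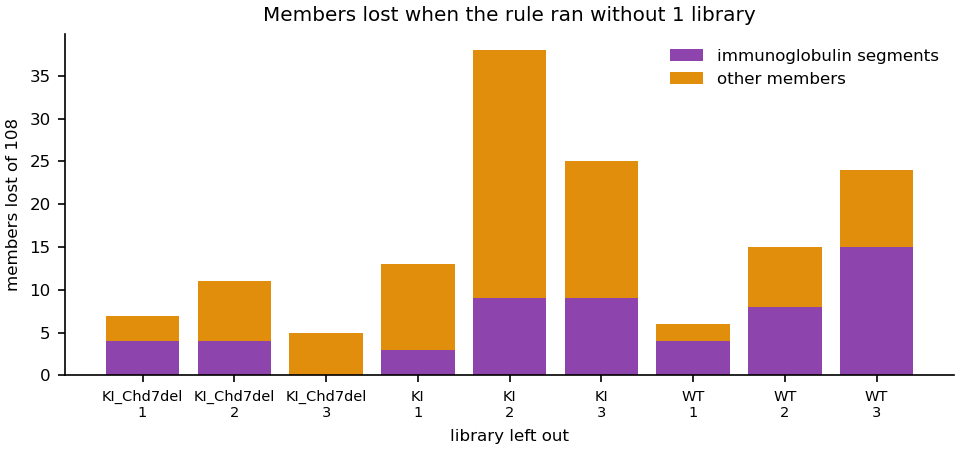
Bars give how many of the 108 members no longer met the rule when 1 library was left out, split into immunoglobulin genes and other members. The bar for KI library 2 is the tallest at 38, and the bar for WT library 3 is mostly immunoglobulin genes, 15 of 24.

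The bars of lost members show which library each class leaned on, and another reading split the same 9 libraries. The rule was applied to 6 libraries and the genes chosen were read in the 3 left out, 1 per group. The libraries left out together shared a replicate number, which does not pair the samples, so other groupings would serve as well. With replicate 1 left out, 143 genes were chosen and 41 met both ratio limits in the left-out libraries. With replicate 2 left out, 34 of 79 did, and with replicate 3 left out, 22 of 128. Without replicate 3, the chosen genes kept a median ratio of WT over KI of 5.71 in the left-out libraries, but their median ratio of KI_Chd7del over KI was 1.87. Without replicate 1 these medians were 3.06 and 1.00, and without replicate 2 they were 3.43 and 0.810. For immunoglobulin genes 10 of 46, 7 of 32 and 5 of 25 met both limits. For the other genes 31 of 97, 27 of 47 and 17 of 103 did. Neither class thus did better on both limits in all 3 readings. The classes differed in the ratio of WT over KI. Its left-out medians were 1.63, 1.77 and 2.79 for immunoglobulin genes and 3.27, 3.74 and 6.05 for the others. The 3-fold limit alone was met by 11, 10 and 12 of these immunoglobulin genes and by 62, 32 and 99 of the others. Of all genes with a WT mean of at least 100 in the 6 libraries, 1.07%, 1.70% and 0.759% met both limits in the left-out libraries.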

How the data were processed

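RNA-seq of c-KIT+ marrow was read from 1 table of 43629 genes and 9 libraries, 3 per group. The deposited values are treated here as a score, namely whole numbers that the authors had already normalised and rounded; that they are normalised is inferred from the spacing of low values and the closeness of the group medians. The submitters' processing notes name CASAVA 1.8.2, STAR 2.4, RSEM, DESeq2 and the build GRCm38, with no roles or order. Read depth is not given in the sources used here, so no interval or floor is printed, and low values carry counting error that cannot be stated. Because the values are no raw counts, no count test was run.

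Symbols came from GENCODE M21 for 42548 identifiers, and 1081 had none. Group differences were fitted with limma 3.58.1 (R 4.3.3) on log2(value + 1) with a mean-variance trend over all 9 libraries, for the 15997 genes with at least 10 in at least 3 libraries. Tests are 2-sided with Benjamini-Hochberg adjustment at 0.05 over all genes tested. A fold on this scale understates the change of low genes. No label says that each library is another mouse, and the p-values then refer to the spread among libraries, which may be technical. The 3 contrasts share groups: each group enters 2 of them. Same-numbered libraries did not deviate together (correlations -0.153 to 0.109), so the numbers were not taken to pair the samples.

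The members and lists were chosen with earlier results of these data known. Genes were named by rule: members with the 10 largest WT over KI ratios, the 10 highest WT means, the 6 lowest KI_Chd7del over KI ratios, up to 4 per marker list, the leading neighbourhoods, and 2 genes on each side of each limit. Other members, the role groups, the lists for NADPH oxidase, beta-2 integrins, BMP and TGF-beta receptors, cathepsins and actin regulators, and the genes named from lists were chosen after their values were seen. 1 member is not reported here by name. The fit was tested on simulated data. Promoters are from RefSeq on GRCm38.p6. Alternatives covered scaling, pseudocount, filters, thresholds, a replicate block and leaving out libraries.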

Additional observations from a re-analysis of the deposited data

How the results depend on the processing

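The rule gave 108 genes; it gave 373 with a WT over KI limit of 2, 50 with a limit of 4, 261 with a KI_Chd7del over KI limit of 2, 66 after scaling to equal column totals, and 48 with the lowest WT library in place of the WT mean, the last chosen after seeing the data. Leaving out 1 library gave 87 to 131. With equal column totals, genes called lower by limma numbered 2506 in KI against WT (4345 as deposited) and 1892 in KI_Chd7del against WT (3893 as deposited). That scaling moved the median of all genes to 0.25 and 0.26 on the log2 scale and the share of higher calls to 74.2% and 78.7%, against 53.9% and 49.7%. Upper-quartile factors gave 57.4% higher calls in KI_Chd7del against KI (43.4% as deposited) and 59.4% in KI_Chd7del against WT. The log2 difference of KI minus WT turned positive without WT replicate 3 for Igkv4-70 (0.08), Ighv1-50 (0.63) and Igkv12-46 (0.72), and without KI replicate 3 for Igkv12-46 (0.04). Over the runs that left out 1 library it ranged from -1.96 to 0.08, from -2.37 to 0.63 and from -1.79 to 0.72 for these genes. Of 737 alternative values for 41 named genes, 681 kept direction and side of the threshold, 44 lost the call, 8 gained it and these 4 turned; every gene that lost a call or turned was an immunoglobulin gene. With the replicate block, calls of lower genes were 4192 in KI against WT, 3413 in KI_Chd7del against KI and 3680 in KI_Chd7del against WT, and members called lower were 88, 9 and 105. The cause of these shifts was not tested.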
